A study of Mus musculus with 24 samples.

Results

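This account covers 34 genes of the unfolded protein response and the integrated stress response in sorted cells of mouse small intestinal crypts. Members were chosen by symbol, as the rows of the count table whose Ensembl gene ID carries 1 of 34 symbols, and all 34 were found among 55421 genes and had counts. The study deleted Setd1a, which encodes a histone H3 lysine 4 methyltransferase. The 4 control mice (het, Setd1aFC/+) carried 1 conditional allele beside 1 intact allele, and the 4 knockout mice (hom, Setd1aFC/FC) carried the conditional allele on both chromosomes. Both genotypes carried the Lgr5-eGFP-CreERT2 transgene and both received 1 mg tamoxifen by intraperitoneal injection on 3 days in a row, so the controls too were exposed to tamoxifen and Cre. Crypts were dissociated 4 days after induction, and live cells were sorted by EpCAM, CD24 and CD45 staining to give fractions labelled as stem cells, transit-amplifying cells (TA) and Paneth cells. Each mouse gave 1 library per fraction, which makes 24 libraries in 6 groups of 4. Cre was driven by Lgr5, a gene of crypt base stem cells. Recombined cells of the TA and Paneth fractions could have descended from stem cells since induction, and the counts do not give the recombined share of any fraction. Per-animal values below follow the order BN44, BO27, BO58 and BP03 for het mice and BN45, BO25, BO57 and BP04 for hom mice.

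The unfolded protein response relays the folding state of the endoplasmic reticulum (ER) to the nucleus through the membrane sensors IRE1 (Ern1, with Ern2 in mucosal epithelia), ATF6 and PERK (Eif2ak3). IRE1 splices Xbp1 mRNA, ATF6 is released by proteolysis and PERK phosphorylates eIF2, the step it shares with the other kinases of the integrated stress response, which favours translation of Atf4. Their targets are ER chaperones, folding enzymes and the ER-associated degradation (ERAD) machinery on one arm, and CHOP (Ddit3), amino acid synthesis genes and feedback inhibitors on the other. Paneth and goblet cells export large amounts of protein and depend on Xbp1 in this tissue. Sensor activity, Xbp1 splicing and eIF2 phosphorylation are not read by gene counts.

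Library totals ran from 24.7 to 47.1 M counts. Levels are in CPM, counts scaled to the library's size, here with 1 TMM scaling over all 24 libraries, and n is 4 libraries of different animals in every group. TMM multiplied the library sizes by 0.4479 (BN45 Paneth) to 1.221 (BO27 stem), so CPM values are not shares of a library's counts. Setd1a itself was at 5.64 ± 1.58 (SD) CPM in het and 5.19 ± 1.49 in hom stem cells. The TA means were 4.86 ± 1.42 (het) and 5.28 ± 0.94 (hom), and the Paneth means 9.73 ± 4.13 and 6.23 ± 1.05. Because the counts sum all exons, loss of the floxed exons is not checked by these values. Lgr5, the gene that drove Cre, was at 136.4 to 218.6 CPM in stem, 5.48 to 16.0 in TA and 45.7 to 78.0 in Paneth libraries. Summed markers followed the labels: 7 stem markers lay between 27290 and 45503 CPM in stem libraries against at most 10100 elsewhere, and 8 Paneth markers between 69605 and 884437 CPM in Paneth libraries against at most 5167 elsewhere. The Paneth libraries also held 8 enteroendocrine markers at 3457 to 8216 CPM and 7 tuft markers at 1178 to 2367 CPM, against at most 501 and 8.89 in the other libraries. The Paneth library of BO58 stood apart, with the lowest Paneth and goblet marker sums (69605 and 629 CPM) of the 8. All 3 libraries of BN44 and of BN45 stood apart in 11 immediate early genes, summed to between 2043 and 3524 CPM against 360 to 1202 in the other 18 libraries. Enterocyte markers (8 genes) summed to 567 to 3432 CPM over all libraries, immune markers to 83.9 to 233 CPM in Paneth libraries and at most 4.24 elsewhere, and stromal markers to at most 3.18. In bulk samples such as these, fewer cells of a type and less RNA per cell cannot be told apart.

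Short elements read by factors of these responses were searched for around the members' start sites. RefSeq windows (GRCm38.p6) of 250 bases before and 50 bases after the start were held for 30 of the 34 members; Atf6, Ern2, Hyou1 and Manf had none. The ER stress response element (ERSE, letters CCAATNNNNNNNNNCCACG), which ATF6 reads together with NF-Y, matched on either strand in 9 of the 30 windows, against 0.119% of all 32851 windows. ERSE-II (ATTGG, any 1 base, then CCACG) matched in 2 members against 0.0365% of all windows. The C/EBP-ATF response element (CARE, TGATGNAA), read by ATF4, matched in 4 members against 3.97%. In all 14 of the 30 windows held any match, and those of Xbp1, Atf4, Ddit3, Edem1, Ern1 and Sel1l were among those that held none. The unfolded protein response element TGACGTGG matched in 0 members against 0.676%, which says only that these letters were not in these windows. ERSE and ERSE-II share the letters CCACG, and ATTGG is the reverse complement of CCAAT; no member window was counted under both. The matches are printed because they set out which members share letters, each read 5′ to 3′ on the strand named, with the match in capitals and flanks in lower case. A match describes the sequence and is not a measured binding site. The stretches of Dnajb11 and Trib3 lie after the RefSeq start, and the others before it. The annotation of the count table starts Hspa5 at 34771970, Asns at 7693254 and Trib3 at 152344032. By that annotation the Hspa5 and Asns stretches lie within the gene and that of Trib3 before it.
Calr ERSE, chr8:84847070-84847098, plus strand: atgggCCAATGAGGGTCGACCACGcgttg
Canx ERSE, chr11:50325795-50325823, minus strand: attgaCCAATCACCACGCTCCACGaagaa
Creld2 ERSE, chr15:88819515-88819543, minus strand: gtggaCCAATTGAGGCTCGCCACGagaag
Derl3 ERSE, chr10:75893237-75893265, minus strand: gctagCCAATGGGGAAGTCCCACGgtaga
Dnajc3 ERSE, chr14:118937822-118937850, plus strand: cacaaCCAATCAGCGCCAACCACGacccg
Hsp90b1 ERSE, chr10:86705633-86705661, minus strand: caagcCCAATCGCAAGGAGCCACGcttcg
Hsp90b1 ERSE, chr10:86705528-86705556, plus strand: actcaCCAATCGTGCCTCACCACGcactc
Hspa5 ERSE, chr2:34772020-34772048, plus strand: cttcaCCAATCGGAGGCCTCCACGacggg
Pdia6 ERSE, chr12:17266486-17266514, plus strand: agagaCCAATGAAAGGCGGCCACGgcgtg
Syvn1 ERSE, chr19:6046527-6046555, plus strand: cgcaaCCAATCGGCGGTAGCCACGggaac
Dnajb11 ERSE-II, chr16:22857847-22857867, plus strand: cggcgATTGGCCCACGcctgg
Herpud1 ERSE-II, chr8:94386372-94386392, plus strand: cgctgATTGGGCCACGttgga
Asns CARE, chr6:7693220-7693237, minus strand: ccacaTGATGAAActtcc
Chac1 CARE, chr2:119351044-119351061, minus strand: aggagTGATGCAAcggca
Herpud1 CARE, chr8:94386312-94386329, minus strand: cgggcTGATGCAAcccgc
Trib3 CARE, chr2:152344034-152344051, plus strand: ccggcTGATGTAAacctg

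By mean level, 20 of the 34 mRNAs were highest in the Paneth fraction in het animals and 20 in hom animals. TA cells held the highest mean for 12 members in het and 9 in hom animals, and stem cells for 2 and 5. The fraction with the highest mean was the same in both genotypes for 29 members. Stem cells had the lowest mean for 26 members in het and 20 in hom animals. This order rests on the scaling: on plain library sizes the Paneth fraction was highest for 8 members in het and 8 in hom animals and TA cells for 21 and 18, while stem cells were lowest for 21 and 17. Summed over all 34, the level was 4629 ± 478 CPM in het and 4885 ± 455 in hom stem cells, 7086 ± 725 and 6152 ± 446 in TA cells, and 6018 ± 1021 and 5978 ± 324 in the Paneth fraction. Per kb of exon, the scale on which genes can be set side by side, the disulfide isomerase Pdia3 (429.0 CPM per kb in het TA), the Hsp70 chaperone Hspa5 (253.1) and the disulfide isomerase P4hb (250.3) were the most abundant, while the sensors ranged from 1.42 (Ern1) to 2.96 (Ern2) in the same group. Derl3, Trib3 and Chac1 lay under 1 CPM per kb in het TA cells.

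**Figure D1:**
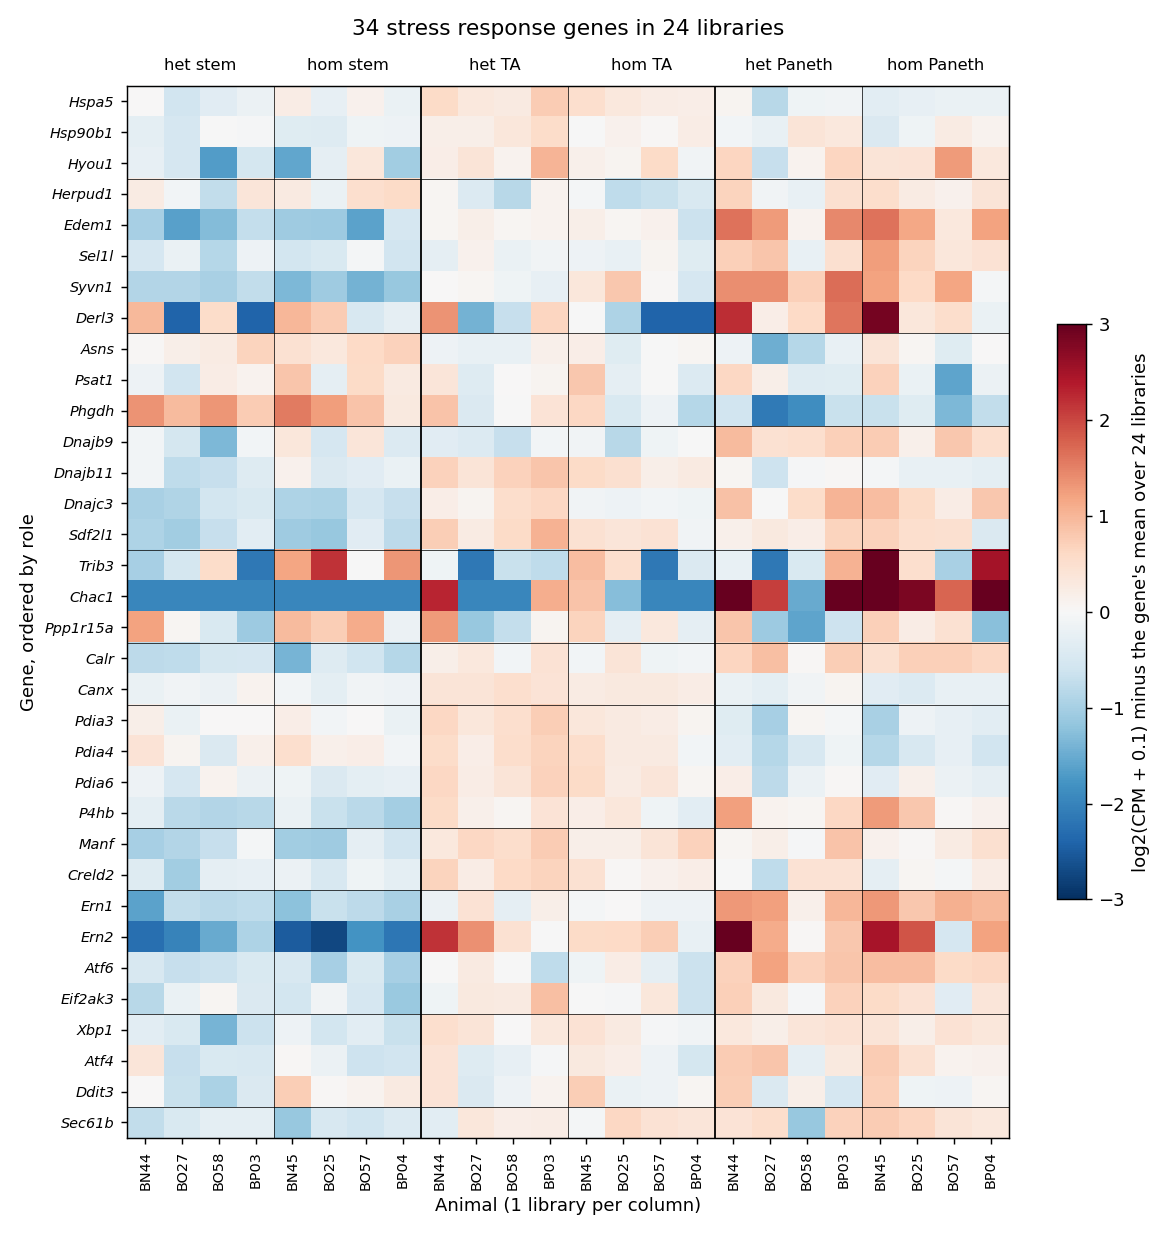
Heat map of the 34 genes (rows, by role) in 24 libraries (columns, by group and animal). Colour is log2(CPM + 0.1) minus the gene's mean over the 24 libraries, with the scale ending at 3 either way. Ern1, Ern2, Edem1, Syvn1 and Atf6 are blue in stem and mostly red in Paneth libraries, while Phgdh runs the other way. Among the Paneth libraries BO58 is lowest for Ern1 and Edem1, BO57 for Ern2 and Atf6, and BP04 for Syvn1.

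Setd1a deletion was compared with its control within each fraction, 4 hom against 4 het libraries. In stem cells 0 of 33 tested members passed an adjusted p of 0.05 by the edgeR quasi-likelihood test with Benjamini-Hochberg adjustment over all genes (Chac1 had too few counts to be tested), and DESeq2 also called 0; the background was 0.0125% of 16056 genes. At an unadjusted p under 0.05 there was 1 member, against 6.73% of all genes. The median log2 difference, hom minus het, was 0.04 over the members (18 of 33 above 0) and 0.00 over all genes. The p-values measure the spread between these animals only.

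The 1 member was Ddit3, which encodes CHOP, the transcription factor of the late, death-linked arm of both responses. Its level was 13.9, 8.64, 7.11 and 10.1 CPM in the het stem libraries and 22.9, 14.1, 14.9 and 16.6 CPM in the hom stem libraries. The 4 hom values all lay above the 4 het values, by a log2 difference of 0.78 (SE 0.25, adjusted p = 0.54). Within each genotype the highest Ddit3 value came from the animal with the highest immediate early genes, BN44 and BN45. Without BN44 the difference was 0.98 (adjusted p = 0.35) and without BN45 it was 0.60 (adjusted p = 0.70). About 10.9% of Ddit3 exon bases are shared with other annotated genes. Syvn1, the ubiquitin ligase HRD1 of ERAD, was the other stem member whose groups did not overlap: 4.14, 4.20, 3.91 and 4.57 CPM in het against 2.97, 3.63, 2.83 and 3.48 in hom libraries (log2 difference -0.39, SE 0.26, adjusted p = 0.86). Non-overlap of this kind held for 4.86% of all genes in stem cells, against 2 of 33 members.

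Trib3, a pseudokinase induced by ATF4 and CHOP that feeds back on them, was near the detection floor in stem cells. The het libraries had 35 Trib3 counts in all, at 0.122, 0.207, 0.55 and 0 CPM, and the hom libraries had 168 counts, at 0.902, 1.89, 0.338 and 1.01 CPM. The groups overlapped (log2 difference 2.23, SE 1.0, adjusted p = 0.75). Psat1, an enzyme of serine synthesis, stood at 27.4, 20.3, 35.4 and 33.0 CPM in het and 54.0, 25.4, 45.6 and 36.9 in hom stem libraries (0.47, SE 0.26, adjusted p = 0.81). Hspa5, the ER Hsp70 BiP that holds the sensors inactive, had a log2 difference of 0.23 (SE 0.16) and its J-domain partner Dnajb9 one of 0.42 (SE 0.30). The groups of Hspa5, Dnajb9 and Psat1 overlapped, and their adjusted p-values were between 0.81 and 0.88.

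In TA cells 0 of 31 tested members passed (Chac1, Derl3 and Trib3 were not tested), DESeq2 called 0, and the background was 0.0% of 15925 genes. At an unadjusted p under 0.05 there were 3 members, all lower in hom, against 5.92% of all genes in either direction. The member median was -0.17, with 24 of 31 members below 0, and the all-gene median was 0.00. Cell-type markers differed beside them: 7 of 8 Paneth markers were above 0 in hom over het TA cells (median 1.13; BN45 summed to 5167 CPM and the other hom TA libraries to 689 to 1300), and 6 of 7 stem markers were (median 0.36), with 0 called; their part in the member values was not tested. The 3 members were folding factors. Dnajc3 (p58IPK, a BiP co-chaperone that also inhibits PERK) was at 149.4, 137.6, 187.4 and 200.0 CPM in het and 120.1, 115.7, 122.8 and 118.1 CPM in hom TA libraries. The groups did not overlap, with a log2 difference of -0.49 (SE 0.14, adjusted p = 0.63).

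Pdia3, the disulfide isomerase that works with the lectin chaperones, was at 1403.9, 1165.3, 1302.4 and 1515.0 CPM in het and 1164.5, 1105.3, 1058.5 and 962.2 in hom TA libraries (-0.32, SE 0.12, adjusted p = 0.78). The lowest het value and the highest hom value of Pdia3 differed by less than 1 CPM. Creld2, a secreted ER stress-induced protein, was at 95.5, 70.1, 92.4 and 96.5 against 83.2, 62.1, 65.7 and 69.6 CPM, with BO27 inside the hom range (-0.33, SE 0.15, adjusted p = 0.84). The lectin chaperone calnexin (Canx) was the third member without overlap, at 501.3, 504.0, 545.0 and 511.1 CPM against 457.1, 471.4, 469.9 and 449.4 (-0.15, SE 0.10, adjusted p = 0.94). Non-overlap held for 3 of 31 members, all lower in hom, and for 4.16% of all TA genes in either direction. Dnajb11, Sdf2l1 and Hsp90b1, co-chaperones and the ER Hsp90, had log2 differences of -0.27 (SE 0.14), -0.37 (SE 0.19) and -0.22 (SE 0.12), with adjusted p-values of 0.90 to 0.92 and overlapping groups.

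In Paneth cells 0 of 34 members passed, at an unadjusted p under 0.05 there were 0 as well, DESeq2 called 0, and the background was 0.0% (adjusted) and 2.28% (unadjusted) of 16108 genes. The groups overlapped for all 34 members, and 1.76% of all genes did not overlap. The median was -0.01, with 16 of 34 members above 0. Summed Paneth markers ranged from 69605 (BO58) to 469192 CPM in het and from 168448 to 884437 CPM in hom libraries of this fraction; their part in these values was not tested. The smallest p belonged to Asns, asparagine synthetase, an ATF4 target: 142.6, 57.3, 88.0 and 137.6 CPM in het and 206.7, 166.3, 123.0 and 161.4 in hom libraries (0.62, SE 0.31, adjusted p = 1.0). Trib3 was again low and uneven, at 0.279, 0, 0.219 and 0.805 CPM against 3.42, 0.53, 0.125 and 2.38 (2.30, SE 1.21, adjusted p = 1.0). Hyou1, an ER Hsp70-related exchange factor, was at 12.7, 5.01, 8.70 and 12.8 CPM in het and 10.7, 10.9, 19.9 and 10.2 in hom Paneth libraries (0.39, SE 0.38). Ppp1r15a (GADD34), the eIF2 phosphatase subunit, was at 35.1, 9.15, 6.54 and 12.8 CPM against 32.3, 23.1, 27.1 and 8.24 (0.50, SE 0.56), with BN44 and BN45 highest in each group. Syvn1 had a difference of -0.51 (SE 0.35) and Canx one of -0.17 (SE 0.18).

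**Figure D2:**
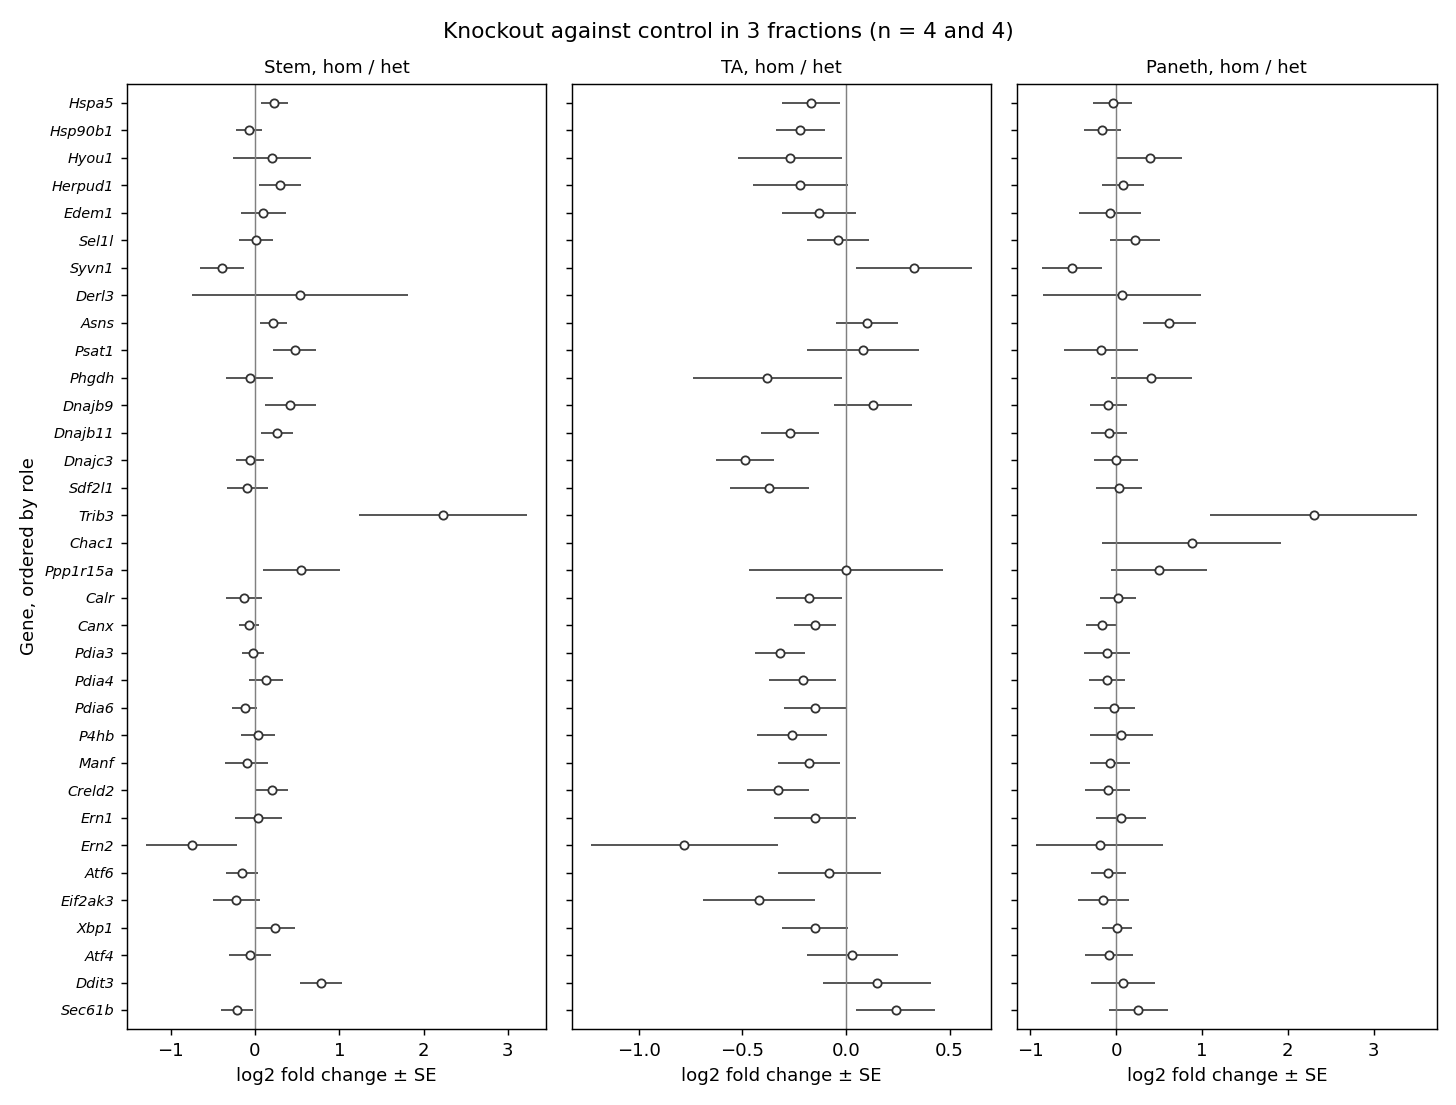
Log2 fold change, hom over het, with its SE, for each tested gene in stem, TA and Paneth cells (the 3 panels have their own scales). All points are open because 0 members passed the adjusted p; most TA points lie left of 0, with a median of -0.17.

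**Figure D3:**
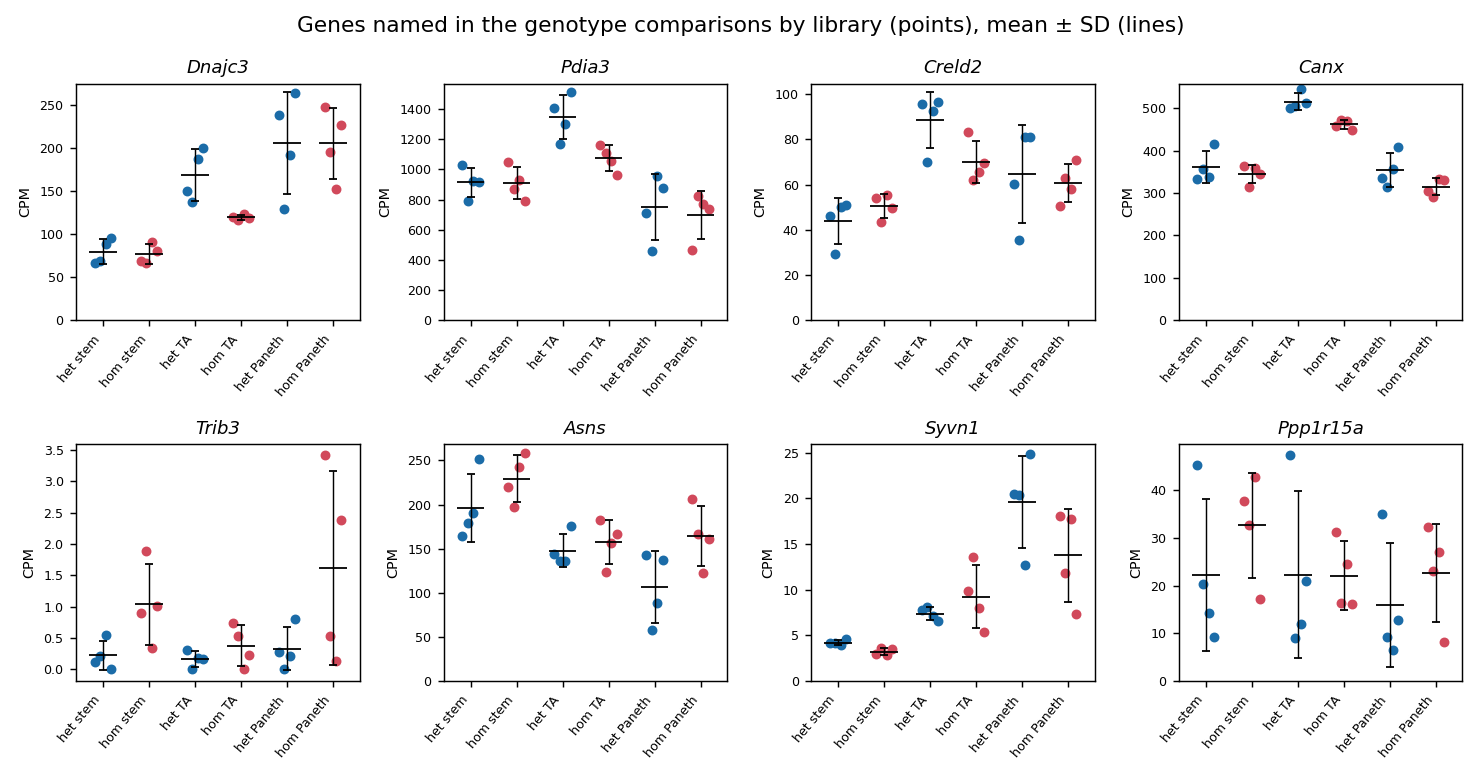
CPM of 8 genes named in the genotype comparisons, 1 point per library (blue het, red hom), with the mean and SD as lines. Dnajc3 and Pdia3 in TA cells are separated by genotype, while Trib3, Asns and Ppp1r15a spread widely within groups.

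Whether the genotype difference itself differed between fractions was tested as an interaction in 1 fit of all 24 libraries. For stem minus TA, 0 of 34 members passed (background 0.0% of 19396 genes), DESeq2 called 0, and 1 had an unadjusted p under 0.05 (background 3.95%), the co-chaperone Dnajb11 with a log2 value of 0.54 (SE 0.25, adjusted p = 1.0). Leaving aside Chac1, which had 0 stem counts and so no usable value, 29 of the other 33 values were above 0, at a median of 0.31 against 0.00 for all genes. In the same interaction 0 of 8 enterocyte markers were above 0 (median -2.61, and -2.56 with 0 of 8 in hom over het stem cells) and 2 of 8 Paneth markers (median -1.15); their part in the member values was not tested. For stem minus Paneth the count was 0 by edgeR and by DESeq2 (background 0.0%), and 0 at an unadjusted p under 0.05 (background 6.28%), with 17 of the other 33 values above 0 and a median of 0.03. For TA minus Paneth, 0 passed by edgeR and DESeq2 (background 0.00516%) and 1 had an unadjusted p under 0.05 (background 4.98%): Syvn1, with 0.84 (SE 0.40, adjusted p = 0.99). Here 27 of 34 values were below 0, at a median of -0.21 (26 of 33 and -0.21 without Chac1). The 3 interactions share libraries and are not independent of each other.

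Fractions of the same animals were set against each other for each genotype, and contrasts within a genotype share libraries. Among the members, 16 of 32 tested members passed as lower in stem in het animals (background 3.57% of 16182 genes) and 0 as higher (background 2.69%), and the member median was -0.61 against 0.02 for all genes. In hom animals 7 of 33 passed as lower (background 2.58%) and 0 as higher (background 2.03%), with a median of -0.48 against 0.01. By role, the 16 in het animals were 3 of 4 co-chaperones, 3 of 4 disulfide isomerases, both lectin chaperones, both secreted factors, 1 of 3 chaperones, 2 of 4 sensors, 2 of 5 ERAD members and 1 of 3 transcription factors. The 7 in hom animals were 2 co-chaperones and 1 each of the disulfide isomerases, secreted factors, sensors, ERAD members and translocon. Both genotypes shared 6 lower members: Ern2, Sdf2l1, Manf, Syvn1, Dnajc3 and Pdia6. Cell-type markers differed beside them. All 6 goblet markers were called lower in stem than TA cells in each genotype, with medians of -6.15 in het and -5.68 in hom animals. Of 8 enterocyte markers 1 was called lower in het and 7 in hom animals. The part of these cell types in the member values was not tested. With the animal as a replicate block the member calls were 19 lower and 1 higher in het and 14 lower and 3 higher in hom animals. Of all genes, 6.33% were then lower and 5.09% higher in het, and 5.07% and 3.87% in hom animals. Beside the 0 members called higher, 2 in het and 3 in hom animals had an unadjusted p under 0.05, and DESeq2 called 1 and 3. Of all genes, 1630 of 16182 and 1432 of 15954 were higher at that unadjusted p, and DESeq2 called 5.68% and 4.81% higher. The unadjusted member counts were near or under those shares and are no result about the members. The count of lower members fell from 16 to 3 without BO27, 2 without BO58 and 7 without BP03, and from 7 to 2 without BN45, 1 without BO25, 3 without BO57 and 3 without BP04. The share of all genes called lower fell too, from 3.57% to 0.806%, 1.12% and 1.85% without those het animals, and from 2.58% to 1.59%, 0.616%, 1.05% and 1.3% without each hom animal. Pdia6 lost its call without any 1 animal in either genotype, as did Syvn1 in het and Dnajc3 in hom animals. In hom animals Manf, Sdf2l1 and Syvn1 each lost the call in 3 of the 4 omissions. In het animals Ern2, Manf and Dnajc3 lost it without BO27 or BO58, and Sdf2l1 without BO58.

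Between Paneth and stem cells most calls were higher in the Paneth fraction. In het animals 13 of 32 members passed as higher in Paneth than in stem (background 17.3% of 16230 genes) and 1 as lower (background 11.0%), with a member median of 0.78 against 0.05. In hom animals 15 of 34 passed as higher (background 17.4%) and 2 as lower (background 13.2%), with a median of 0.76 against 0.06; Chac1, at 0 in stem cells, lies above that median at its bound too. In both genotypes 12 were higher (Ern2, Edem1, Syvn1, Ern1, Atf6, Dnajc3, P4hb, Calr, Sdf2l1, Manf, Sel1l and Xbp1) and 1 was lower in both, Phgdh. They took in 3 of 4 sensors and 3 of 5 ERAD members, without Eif2ak3, Herpud1 and Derl3, and 6 members of other roles. Against TA cells the calls went both ways: 5 higher (background 17.4%) and 5 lower (background 11.8%) of 33 in het, and 9 higher (background 16.3%) and 5 lower (background 12.2%) of 34 in hom animals, with medians of 0.09 and 0.30 against 0.08 for all genes in each. Against TA, the het share higher and both shares lower were near the background, so those counts are no result about the members as a set. The hom counts include Chac1, which passed the count filter only through its Paneth libraries. Without it they were 14 of 33 higher against stem and 8 of 33 against TA. The hom median against stem was then 0.74, and the medians against TA were 0.07 in het and 0.21 in hom animals. Edem1, Atf6, Ern1 and Dnajb9 were higher in both genotypes, and Pdia4, Pdia3, Dnajb11 and Canx lower in both.

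These Paneth counts changed with the scaling; the 10 most abundant genes took 18.8% to 57.2% of counts in Paneth libraries and 13.1% to 23.7% in the others. With plain library sizes in place of TMM the all-gene medians moved to -0.41 and -0.47 in het (against TA and against stem) and to -0.58 and -0.57 in hom animals. The calls were then 1 higher and 10 lower against TA and 7 higher and 3 lower against stem in het, and in hom animals 1 and 8 against TA and 5 and 4 against stem. Edem1, Atf6, Ern1 and Dnajb9 each lost their call over TA in both genotypes under that scaling, and over stem P4hb did in both (adjusted p = 0.09 in het and 0.19 in hom) and Atf6, Calr and Dnajc3 in hom animals (adjusted p between 0.052 and 0.095). Of all genes, 9.35% were then higher and 21.5% lower against TA and 9.22% and 21.2% against stem in het, and 6.63% and 23.4% and 7.54% and 22.3% in hom animals. Against TA, the het calls were 2 higher and 1 lower without BN44, 3 and 2 without BO27, 6 and 2 without BO58, and 2 and 1 without BP03. The hom calls were 4 and 2 without BN45, 5 and 1 without BO25, 6 and 1 without BO57, and 5 and 1 without BP04. The shares of all genes under the same omissions were 11.3% to 14.7% higher and 5.85% to 11.3% lower in het, and 9.53% to 13.3% and 5.61% to 9.27% in hom animals. Against stem, the counts of higher members stayed between 10 and 15 in het and between 12 and 14 in hom animals when any 1 animal was left out. The share of all genes called higher was then 12.0% to 14.7% in het and 11.7% to 14.5% in hom animals. The enteroendocrine and tuft markers named above are part of the Paneth libraries, and their part in these differences was not tested.

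Of the sensors, Ern1, Ern2 and Atf6 were called higher in Paneth than in stem cells and Eif2ak3 was not. Ern1 (IRE1 alpha, the kinase and RNase that splices Xbp1) was at 3.59, 6.59, 6.29 and 6.46 CPM in het and 4.70, 6.93, 6.39 and 5.59 in hom stem libraries. In TA libraries it was at 9.76, 14.9, 9.15 and 12.6 in het and 10.7, 11.1, 9.90 and 9.95 in hom, and in Paneth libraries at 27.4, 26.0, 12.3 and 22.4 and at 27.4, 19.4, 23.2 and 22.0. Every stem value lay under every TA value, and every Paneth value above every TA value except that of BO58, the library with the fewest Paneth markers. Paneth over stem, the log2 fold change was 1.98 (SE 0.34, edgeR adjusted p = 0.0019) in het and 2.0 (SE 0.24, adjusted p = 0.00031) in hom animals. Paneth over TA it was 0.94 (SE 0.30, adjusted p = 0.038) and 1.18 (SE 0.20, adjusted p = 0.0027). The het call over TA was lost without BN44, BO27 or BP03 and without a filter on low counts (adjusted p between 0.061 and 0.19).

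Ern2 (IRE1 beta, the paralogue of mucus-secreting epithelia) had the steepest difference. It was at 0.682, 0.827, 1.22 and 1.86 CPM in het and 0.569, 0.462, 0.984 and 0.733 in hom stem libraries. TA libraries had 16.8, 9.62, 5.08 and 3.64 in het and 5.44, 5.59, 6.12 and 3.12 in hom, and Paneth libraries 33.1, 8.0, 3.76 and 6.49 and 20.7, 13.7, 2.54 and 8.60. All stem values lay under all others, while TA and Paneth values overlapped. Stem under TA, the log2 fold change was -2.95 (SE 0.54, edgeR adjusted p = 0.013) in het and -2.89 (SE 0.40, adjusted p = 0.0045) in hom animals, and Paneth over stem it was 3.54 (SE 0.73, adjusted p = 0.0052) and 4.12 (SE 0.65, adjusted p = 0.0014). Goblet markers (6 genes) summed to 50.4 to 306 CPM in stem and 3762 to 12401 in TA libraries, and 6 of 6 were called lower in stem than TA cells in each genotype. In Paneth libraries they summed to 629 to 16176 CPM, but 1 of 6 was above its TA level: Spink4 made up 7457 of 9643 CPM in BN44 and 13828 of 16176 CPM in BN45, while Clca1, Zg16 and Fcgbp lay below their TA levels, with medians over the 6 of -2.38 in het and -2.73 in hom animals. In TA libraries the goblet sums were 8108, 12401, 3789 and 5490 CPM in het and 8670, 8587, 4904 and 3762 CPM in hom animals. The highest goblet sum (BO27 in het, BN45 in hom) and the highest Ern2 (BN44 and BO57) came from different animals. For both, BN44 and BO27 lay above BO58 and BP03 in het animals, and BP04 was lowest in hom animals. The part of goblet cells in the Ern2 level was not tested.

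Atf6, the sensor whose released fragment reads the ERSE, was at 18.5, 15.9, 16.5 and 18.8 CPM in het and 18.5, 13.0, 18.9 and 13.0 in hom stem libraries. It was at 25.6, 31.3, 25.8 and 15.3 and at 23.6, 30.4, 21.6 and 16.4 in TA libraries, and at 41.5, 59.7, 42.0 and 46.2 and at 49.5, 49.3, 38.4 and 40.1 in Paneth libraries. All 8 Paneth values lay above all 16 others. Paneth over stem, the log2 fold change was 1.47 (SE 0.20, edgeR adjusted p = 0.00052) in het and 1.53 (SE 0.22, adjusted p = 0.00082) in hom animals, and Paneth over TA it was 0.97 (SE 0.24) and 0.98 (SE 0.22). Eif2ak3 (PERK) was flatter. It was at 7.05, 10.9, 13.2 and 9.27 CPM in het and 8.61, 11.7, 8.85 and 5.75 in hom stem, 11.6, 15.4, 15.3 and 23.5 and 12.4, 12.2, 16.0 and 8.05 in TA, and 20.7, 15.4, 12.3 and 20.4 and 18.8, 17.1, 9.98 and 16.2 in Paneth libraries. Neighbouring fractions overlapped and Eif2ak3 passed in none of the 6 contrasts (Paneth over stem 0.80, SE 0.29, adjusted p = 0.066 in het and 0.87, SE 0.31, adjusted p = 0.058 in hom).

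**Figure D4:**
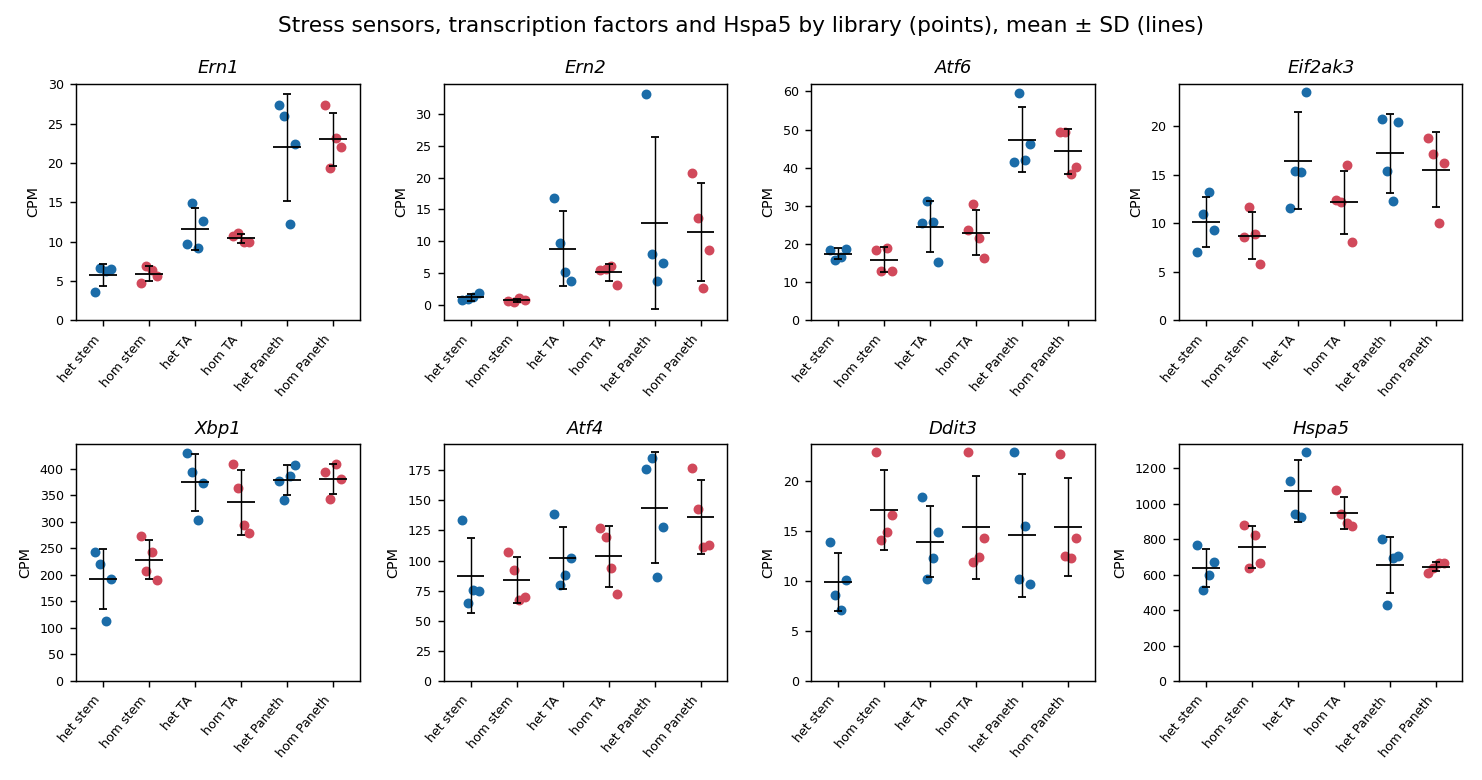
CPM of the sensors, transcription factors and Hspa5, 1 point per library (blue het, red hom), with mean and SD as lines. Ern1 and Atf6 step up from stem to TA to Paneth, Xbp1 steps up from stem only, and Hspa5 is highest in TA cells.

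Of the transcription factors, Xbp1, the IRE1 target required for secretory cells, was at 242.4, 219.4, 113.6 and 192.5 CPM in het and 272.1, 206.8, 243.1 and 190.2 in hom stem libraries. It was at 429.7, 393.0, 302.7 and 371.9 and at 408.3, 364.1, 294.5 and 278.1 in TA, and at 377.1, 340.6, 386.7 and 407.3 and at 392.6, 342.1, 408.4 and 380.8 in Paneth libraries. Stem values lay under TA and Paneth values within each genotype, and TA and Paneth values overlapped. Paneth over stem, the log2 fold change was 1.01 (SE 0.24, edgeR adjusted p = 0.011) in het and 0.78 (SE 0.17, adjusted p = 0.0068) in hom animals; stem under TA it was -0.96 (SE 0.23, adjusted p = 0.035) in het and -0.57 (SE 0.17, adjusted p = 0.10) in hom. Counts per gene do not separate spliced from unspliced Xbp1.

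Atf4, the factor of the integrated stress response, was at 133.5, 64.9, 75.9 and 74.8 CPM in het and 106.9, 92.0, 67.3 and 69.7 in hom stem libraries. TA libraries had 138.5, 80.0, 88.1 and 102.3 and 127.2, 119.9, 94.1 and 72.5, and Paneth libraries 176.4, 185.0, 86.3 and 127.7 and 176.5, 142.5, 111.3 and 113.1. The fractions overlapped in het animals, and in hom animals Paneth lay above stem (0.74, SE 0.24, adjusted p = 0.041). BN44 was the highest het animal in stem and TA cells and BN45 the highest hom animal in all 3 fractions, the same animals that were high in immediate early genes. Ddit3 was at 18.4, 10.2, 12.3 and 14.9 CPM in het and 22.9, 11.9, 12.4 and 14.3 in hom TA libraries, and at 22.9, 10.2, 15.5 and 9.71 and 22.7, 12.5, 12.3 and 14.3 in Paneth libraries. It passed in 0 of the 6 fraction contrasts, and outside stem cells its genotypes overlapped (in TA cells the log2 difference was 0.15, SE 0.26, and in the Paneth fraction 0.08, SE 0.37).

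Hspa5 was highest in TA cells. It was at 767.4, 510.9, 598.6 and 671.6 CPM in het and 881.4, 639.9, 825.6 and 666.3 in hom stem libraries, and at 1125.1, 942.2, 923.8 and 1291.2 and 1075.4, 943.0, 891.9 and 876.2 in TA libraries. Paneth libraries had 799.1, 430.3, 693.3 and 702.2 in het and 610.5, 637.7, 662.9 and 664.9 in hom animals. TA values lay above all Paneth values in both genotypes and above all stem values in het animals. The log2 fold change was -0.75 (SE 0.16, edgeR adjusted p = 0.026) stem over TA in het and -0.53 (SE 0.15, adjusted p = 0.025) Paneth over TA in hom animals. In the other genotype the same contrasts were -0.34 (SE 0.14, adjusted p = 0.24) and -0.68 (SE 0.24, adjusted p = 0.058). Hsp90b1 (GRP94) and Hyou1 passed in none of the 6 contrasts; group means ran from 407.8 to 607.5 CPM for Hsp90b1 and from 5.14 to 12.9 CPM for Hyou1. About 15.7% of Hsp90b1 exon bases are shared with other annotated genes.

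The 4 co-chaperones of BiP took different orders over the fractions. Sdf2l1, a partner of Dnajb11 in keeping chains soluble, was at 18.0, 16.8, 21.3 and 27.8 CPM in het and 16.3, 15.7, 27.4 and 20.1 in hom stem libraries. TA libraries had 57.7, 41.1, 51.5 and 71.4 and 47.4, 44.1, 46.9 and 31.9, and Paneth libraries 38.1, 42.2, 39.5 and 54.7 and 55.6, 48.6, 47.8 and 25.5. Stem values lay under TA values throughout, at log2 -1.40 (SE 0.22, edgeR adjusted p = 0.006) in het and -1.11 (SE 0.22, adjusted p = 0.02) in hom animals. Dnajc3 was at 65.9, 69.0, 88.3 and 94.9 CPM in het and 68.5, 66.6, 90.7 and 80.7 in hom stem libraries, and at 238.2, 128.9, 191.1 and 262.9 and 247.2, 194.6, 152.5 and 226.3 in Paneth libraries; its TA values are given above. Paneth over stem it differed by 1.40 (SE 0.25, adjusted p = 0.0024) and 1.47 (SE 0.20, adjusted p = 0.00059), and Paneth values of hom animals lay above all their TA values (0.82, SE 0.18, adjusted p = 0.0078).

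Dnajb9 (ERdj4), an XBP1 target that recruits BiP to IRE1, was at 118.8, 86.5, 49.6 and 118.3 CPM in het and 158.7, 88.6, 161.5 and 94.9 in hom stem libraries, and at 99.0, 94.5, 78.1 and 118.8 and 116.2, 70.3, 114.4 and 124.2 in TA libraries. In Paneth libraries it was at 240.5, 173.2, 177.6 and 204.8 and at 213.3, 140.1, 221.5 and 176.6. Paneth lay above TA without overlap in both genotypes, at 1.05 (SE 0.19, edgeR adjusted p = 0.0031) and 0.86 (SE 0.22, adjusted p = 0.018). The hom call was lost without BN45 or BO57 (adjusted p between 0.072 and 0.093). Dnajb11 (ERdj3), which delivers clients to BiP, ran the other way: 162.2, 130.5, 161.7 and 177.5 and 148.4, 139.4, 112.7 and 121.0 CPM in TA against 103.8, 64.7, 97.8 and 103.0 and 96.6, 85.9, 85.7 and 81.0 in Paneth libraries. Its Paneth values lay under all TA values, at -0.75 (SE 0.20, adjusted p = 0.019) in het and -0.55 (SE 0.16, adjusted p = 0.026) in hom animals. Those calls were lost without BN44, BO58 or BP03 (adjusted p between 0.052 and 0.083) and without BO25, BO57 or BP04 (0.072 to 0.11). Dnajb11 in stem cells was at 59.0 to 94.4 CPM in het and 74.3 to 109.9 in hom libraries.

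Of the 4 protein disulfide isomerases 2 were lower and 0 higher in Paneth than in TA cells in each genotype. Pdia4 was at 177.9, 139.0, 174.3 and 193.0 CPM in het and 176.1, 147.4, 146.9 and 115.6 in hom TA libraries, and at 98.3, 67.3, 86.6 and 110.7 and 67.2, 87.9, 101.9 and 81.7 in Paneth libraries. Its Paneth values lay under its TA values in both genotypes, at -0.89 (SE 0.20, edgeR adjusted p = 0.0083) and -0.77 (SE 0.17, adjusted p = 0.0094). Pdia3 in Paneth libraries was at 708.3, 457.1, 958.4 and 878.5 and at 466.4, 820.8, 773.0 and 734.5 CPM, under all TA values (-0.82, SE 0.26, adjusted p = 0.038 and -0.60, SE 0.19, adjusted p = 0.038). The Pdia3 call was lost in het animals without BN44, BO27 or BP03 (adjusted p between 0.088 and 0.13), and in hom animals without any 1 animal (0.07 to 0.12) and under both other filters on low counts (0.052 and 0.081). Pdia6 was lower in stem than in TA cells, at 277.7, 217.6, 329.6 and 272.2 CPM in het and 280.7, 226.9, 250.5 and 259.0 in hom animals, against 469.5, 356.3, 400.5 and 493.9 and 455.3, 365.4, 396.2 and 319.6 in TA cells (-0.65, SE 0.16, adjusted p = 0.042 and -0.60, SE 0.14, adjusted p = 0.039). P4hb, also the beta subunit of prolyl 4-hydroxylase, was not called in Paneth over TA (0.30, adjusted p = 0.46 and 0.65, adjusted p = 0.15) but was called higher in Paneth over stem. It was at 472.9, 331.5, 312.0 and 321.7 CPM in het and 504.3, 365.8, 329.4 and 285.7 in hom stem libraries, and at 1360.4, 617.2, 600.4 and 882.9 and 1388.5, 1003.4, 588.8 and 632.3 in Paneth libraries (1.30, SE 0.30, adjusted p = 0.01 and 1.33, SE 0.33, adjusted p = 0.013). The stem and Paneth values of P4hb did not overlap, and the call was lost without BP03 in het (adjusted p = 0.067) and without BO25 in hom animals (adjusted p = 0.063), besides the loss without TMM given above.

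The lectin chaperones that bind N-glycans differed from each other. Calreticulin (Calr) was at 92.8, 95.6, 111.0 and 114.0 CPM in het and 61.6, 122.3, 106.7 and 88.2 in hom stem libraries, and at 182.5, 201.9, 152.5 and 217.0 and 153.2, 211.8, 146.4 and 151.3 in TA libraries. Paneth libraries had 251.3, 300.5, 163.6 and 270.3 and 224.9, 263.3, 264.6 and 248.5. Stem values lay under the values of both other fractions, and Paneth over stem the log2 fold change was 1.29 (SE 0.22, edgeR adjusted p = 0.0018) in het and 1.44 (SE 0.21, adjusted p = 0.00087) in hom animals. Calnexin (Canx) had Paneth values of 336.3, 314.9, 356.0 and 407.6 and 304.2, 291.5, 332.4 and 329.6 CPM, under all TA values of the same genotype (-0.52, SE 0.17, adjusted p = 0.041 and -0.53, SE 0.13, adjusted p = 0.013). Paneth over stem, Canx had log2 values of 0.00 and -0.10. The Canx call in hom animals was lost without BO25, BO57 or BP04 (adjusted p between 0.055 and 0.074) and without a filter (0.06). That in het animals was lost without any 1 animal, with the animal as a replicate block and under both other filters on low counts (adjusted p between 0.059 and 0.15).

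Manf, a secreted ER stress-induced protein, was at 82.2, 88.0, 101.7 and 156.7 CPM in het and 79.3, 78.4, 136.2 and 109.9 in hom stem libraries. TA libraries had 203.0, 249.9, 236.3 and 275.6 and 184.1, 183.3, 214.4 and 263.1, and Paneth libraries 169.3, 183.5, 158.1 and 293.7 and 178.7, 166.5, 194.2 and 225.9. Stem values lay under all others of the same genotype, at -1.17 (SE 0.21, edgeR adjusted p = 0.011) and -1.08 (SE 0.21, adjusted p = 0.018) against TA, while TA and Paneth overlapped. Creld2 was at 29.1 to 51.0 CPM in het and 43.6 to 55.6 in hom stem libraries and passed against TA in het animals (-1.01, SE 0.20, adjusted p = 0.017) but not in hom animals (-0.48, SE 0.15, adjusted p = 0.11); that difference of differences was 0.54 (SE 0.30, adjusted p = 1.0). The translocon subunit Sec61b was lower in stem than in TA cells in hom animals (58.5, 93.0, 86.0 and 97.1 against 124.2, 198.9, 176.4 and 167.8 CPM, -1.01, SE 0.20, adjusted p = 0.021). In het animals Sec61b had -0.57 (SE 0.17, adjusted p = 0.089), and its Paneth values were 173.0, 186.9, 59.0 and 210.0, with BO58 far under the others.

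Among called members, and leaving Chac1 aside, Edem1 and Syvn1 had the largest rises Paneth over stem after Ern2. Edem1, a mannosidase-like protein that marks glycoproteins for disposal, was at 18.0, 11.7, 14.6 and 22.1 CPM in het and 17.2, 17.0, 11.8 and 25.5 in hom stem libraries, and at 37.8, 40.7, 37.9 and 38.6 and 40.7, 37.6, 39.7 and 22.9 in TA libraries. Paneth libraries had 111.3, 88.4, 38.6 and 98.5 and 112.4, 80.2, 45.1 and 83.8, so BO58 sat at the TA level and the other 7 above every TA value. The log2 fold change was 2.38 (SE 0.34, edgeR adjusted p = 0.00076) and 2.22 (SE 0.33, adjusted p = 0.001) Paneth over stem, and 1.14 (SE 0.28, adjusted p = 0.014) and 1.23 (SE 0.30, adjusted p = 0.013) Paneth over TA. The calls over TA were lost without BN44, BO27 or BP03 (adjusted p between 0.058 and 0.086) and without BN45, BO25 or BP04 (0.051 to 0.053). Syvn1 had 7.79, 8.10, 7.08 and 6.56 CPM in het and 9.90, 13.6, 7.94 and 5.41 in hom TA libraries, and 20.5, 20.4, 12.7 and 24.8 and 18.1, 11.8, 17.7 and 7.38 in Paneth libraries. Over its stem values given above, Paneth values were higher without overlap, by 2.25 (SE 0.29, adjusted p = 0.00039) and 2.14 (SE 0.36, adjusted p = 0.0019). The window of Syvn1 is among those with an ERSE.

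Sel1l, the adaptor of the Syvn1 ligase, was at 42.0, 52.1, 33.3 and 53.7 CPM in het and 41.0, 44.0, 58.1 and 40.0 in hom stem libraries against 97.8, 106.2, 51.2 and 84.3 and 143.9, 95.1, 75.4 and 80.6 in Paneth libraries. The BO58 value fell inside the het stem range, and the fold change was 0.94 (SE 0.26, edgeR adjusted p = 0.023) in het and 1.16 (SE 0.25, adjusted p = 0.0071) in hom animals. Herpud1, a membrane scaffold of the same complex with both an ERSE-II and a CARE, passed in 1 contrast only, Paneth over TA in hom animals: 349.3, 284.4, 263.4 and 314.2 against 232.5, 142.1, 151.5 and 175.1 CPM (0.82, SE 0.20, adjusted p = 0.012). In het animals the groups overlapped at 382.4, 221.9, 207.1 and 334.1 against 248.6, 180.8, 134.3 and 257.7 CPM (0.50, SE 0.27, adjusted p = 0.19). Derl3, a derlin of secretory tissues, stayed under 4 CPM in all libraries and passed in none; its highest value was 3.74 CPM in the Paneth library of BN45.

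On the integrated stress response side, Chac1, a glutathione-degrading enzyme induced by ATF4, had 0 counts in all 8 stem libraries, where a count of 0 allows at most 3 counts, or up to 0.0979 CPM in the shallowest library, by counting error only. It was at 3.68, 1.52, 0.0365 and 5.32 CPM in het and 11.5, 2.65, 1.21 and 3.89 in hom Paneth libraries. Set against 3 counts per library, mean Paneth levels were at least 34.7-fold higher than stem in het and at least 60.0-fold higher in hom animals. These bounds are on the means and leave out the spread between animals. The Paneth library of BO58 had 1 count, and its 0.0365 CPM lies under the limit of every stem library (0.0525 CPM or more). TA libraries had 1.80, 0, 0 and 0.724 CPM in het and 0.607, 0.0588, 0 and 0 in hom animals. Chac1 entered the hom tests only through the Paneth libraries, where it was high, so its calls there are given no weight. In het animals the TA and Paneth values overlapped. Ppp1r15a and Trib3 passed in no fraction contrast in which they were tested; Ppp1r15a was at 9.17 to 45.2 CPM in stem, 8.94 to 47.4 in TA and 6.54 to 35.1 in Paneth libraries, and BN44 was the highest het library in each fraction.

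Of the 3 amino acid synthesis members only Phgdh was called between fractions. Phgdh, which starts serine synthesis, was at 32.1, 24.2, 31.6 and 21.5 CPM in het and 37.3, 30.1, 22.8 and 15.3 in hom stem libraries, and at 22.8, 9.30, 12.4 and 16.7 and 19.4, 9.18, 11.2 and 6.89 in TA libraries. Paneth libraries had 8.33, 2.81, 3.40 and 7.88 and 7.87, 9.70, 4.86 and 7.52. Paneth values lay under all stem values, with log2 fold changes of -2.25 (SE 0.40, edgeR adjusted p = 0.0022) and -1.79 (SE 0.34, adjusted p = 0.0035). The 4 cycling markers ran the same way, summed to 221 to 473 CPM in Paneth and 818 to 1125 CPM in stem and TA libraries, and their part in the Phgdh difference was not tested. Asns was at 164.0, 179.3, 190.2 and 251.3 CPM in het and 220.2, 197.6, 242.2 and 258.2 in hom stem libraries, above the Paneth values of het animals without overlap (Paneth over stem -0.85, SE 0.29, adjusted p = 0.053). Psat1 passed in none, with group means between 28.1 and 40.5 CPM.

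**Figure D5:**
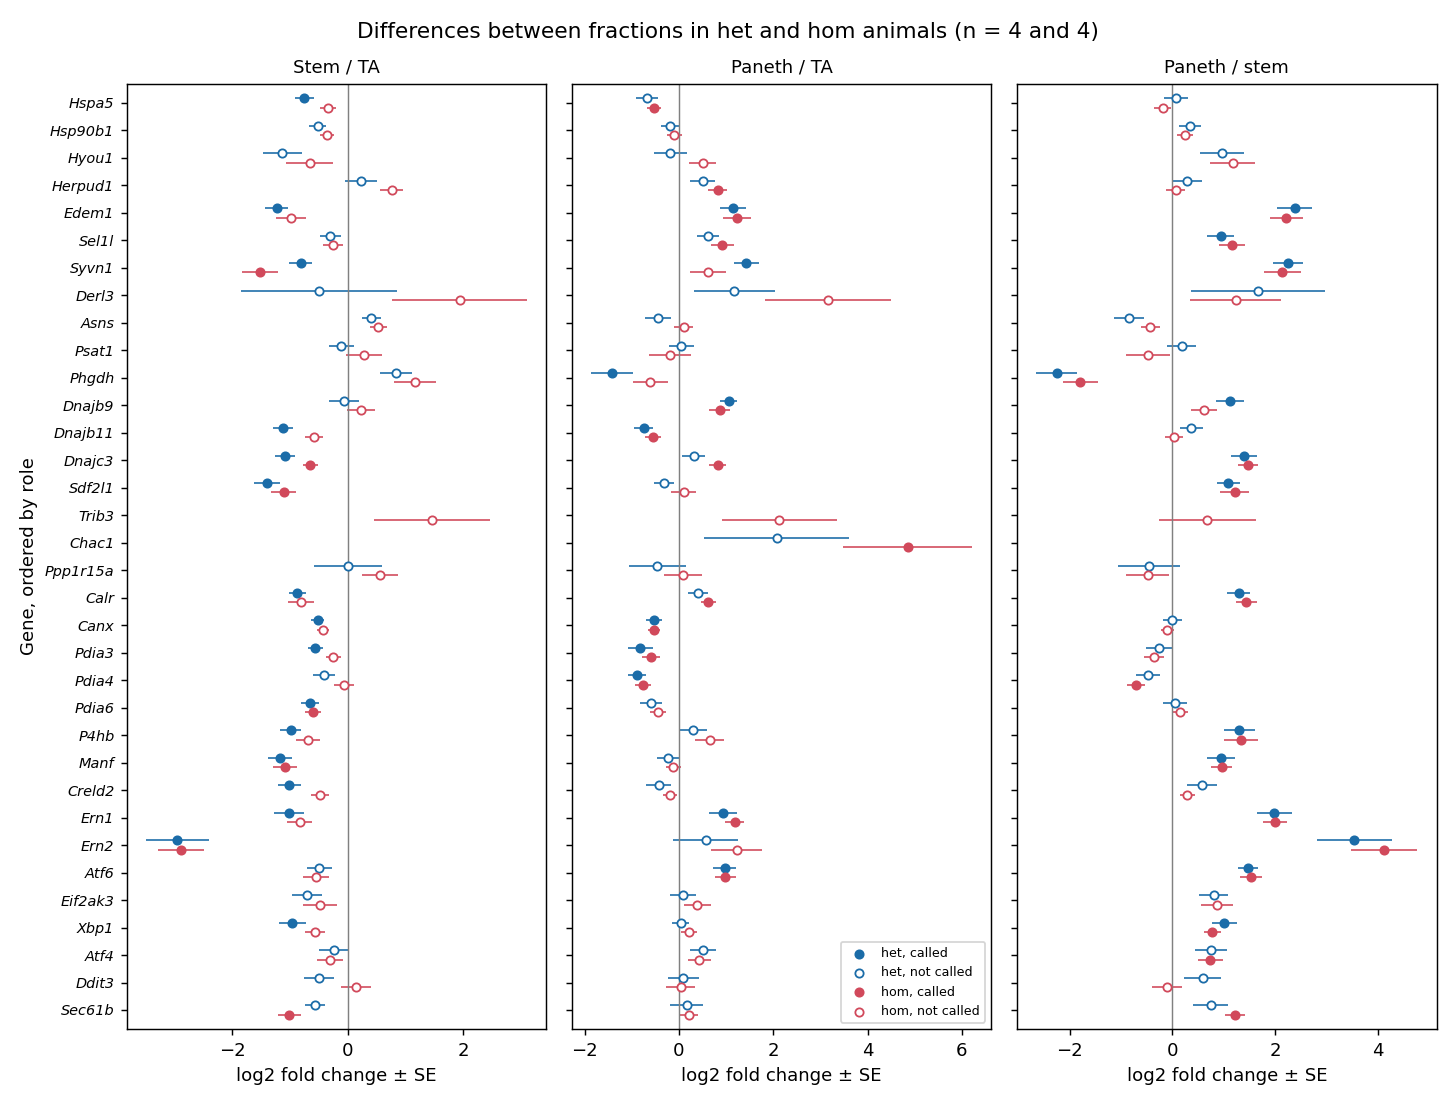
Log2 fold change with SE for stem over TA, Paneth over TA and Paneth over stem, in het (blue) and hom (red) animals; filled points passed the adjusted p. Chac1 Paneth over stem in hom animals is left out because all stem counts were 0; Edem1, Syvn1, Ern1, Ern2 and Atf6 lie right of 0 and Phgdh left of 0 in the Paneth over stem panel.

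By promoter letters, against 3.57% and 2.58% of all genes lower in stem than TA cells in het and hom animals, 8 of 11 members with an ERSE or ERSE-II were called lower in stem than TA cells in het animals and 3 of 11 in hom animals, against 6 of 17 and 2 of 18 tested members whose windows held neither. In Paneth over stem, where 17.3% and 17.4% of all genes were higher, 3 of 11 with an element were called higher in each genotype, against 7 of 17 and 9 of 19 without. The 4 members with a CARE were called higher in 0 of 2 tested in het and 1 of 4 in hom animals in that contrast. That 1 call was Chac1, which is also among the 9 of 19. Chac1 entered the hom tests only through its Paneth libraries, so its call is given no weight. These are counts of few genes and carry no test.

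Other genes of the same pathways were read from 11 lists of 130 genes. In the 3 genotype comparisons 0 of them were called. In Paneth over stem, against 17.3% of all genes in het and 17.4% in hom animals, 9 of 13 further ERAD genes were called higher in het and 7 in hom animals, and 8 of 13 and 7 of 13 further ER folding genes. Over TA, where 17.4% and 16.3% of all genes were higher, the counts were 4 and 5 of 13 for ERAD and 2 and 3 of 13 for ER folding, the latter with a median of -0.11 in het and 0.30 in hom animals. The ER folding counts over TA were near those shares and are no result about that list as a set. Examples called over TA were Os9, an ERAD lectin (log2 0.97 in het, edgeR adjusted p = 0.02; hom 1.24, adjusted p = 0.019), and Ero1lb, the ER oxidase of secretory cells, at 5.52 ± 2.19 and 66.9 ± 18.1 CPM (3.62, adjusted p = 0.00014; hom 4.06, adjusted p = 9.6e-05). Erlec1 and Ube2j1 (0.81 and 0.83 in het) and Fkbp11 (1.75) were called higher there too. Of 12 further sensors and secretory transcription factors, 7 in het and 6 in hom animals were higher in Paneth than in stem cells. Over TA 2 were higher and 1 lower in het and 1 was higher in hom animals, near or under the shares of all genes. Bhlha15 (MIST1), a scaling factor for secretory cells, was at 2.01 ± 0.977 CPM in TA and 26.7 ± 19.0 in Paneth het libraries (3.75, adjusted p = 0.0024).

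Of 14 translocon and signal peptidase genes, 5 were higher in Paneth than in stem cells in each genotype, with Sec11c over TA at 0.99 in het and 1.13 in hom animals. Of 7 oligosaccharyltransferase genes 0 were called higher in Paneth over TA, 2 were lower in het and 1 in hom animals, among them Stt3a (-0.88 and -0.86). Of 21 further ATF4 and CHOP targets, 6 were called higher and 2 lower in Paneth over TA in het (19 tested, against 17.4% and 11.8% of all genes) and 5 and 2 in hom animals (18 tested, against 16.3% and 12.2%): Nupr1, Pycr1, Vldlr and Slc7a5 stood at 3.88, 2.41, 2.99 and 1.99 in het. The same shares of all genes stand beside the other lists over TA. Of 12 cytosolic aminoacyl-tRNA synthetases 4 were lower in het and 1, Nars, in hom animals (-1.0 and -0.59). Of 11 eIF2 kinase, eIF2 and eIF2B genes 1 was higher, Eif2ak4 (GCN2, 1.18 and 1.37), and 4 and 2 were lower. All 6 mitochondrial chaperones and proteases were lower in Paneth than TA cells in het and 4 of 6 in hom animals, with Hspd1 at -1.44 and -1.22. Of the cytosolic heat shock genes 0 were called in het and 1 of 9, lower, in hom animals. Immediate early genes were called in 0 of 11 in het and 1 of 11, lower, in hom animals.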

How the data were processed

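Gene counts were deposited for 24 mouse libraries. Per the file headers and the submitters' processing notes, the authors counted fragments over exons with featureCounts 2.0.1, without strand, at a mapping quality of at least 1, on mm10 with Ensembl release 98; bcl2fastq 2.20.0 made the reads, and which aligner release was used was not found in the labels. Libraries came from cDNA amplified over 17 cycles, per the labels' protocols, with no molecular identifiers, so counts are not independent molecules. The unit is raw counts per gene. Genes without a symbol (267) were kept in the fits, and the 92 spike-in rows, at 0 to 6 counts per library, were left out of library sizes and tests.

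Samples were grouped by genotype and fraction from their titles. Each of 12 comparisons was fitted over all genes with edgeR 4.0.16 (R 4.3.3, filterByExpr, TMM, quasi-likelihood F test), with Benjamini-Hochberg adjustment over all genes tested and a threshold of 0.05; the standard error (SE) is the log2 fold change divided by the square root of F. Genotype and fraction comparisons used the 8 libraries concerned and interactions all 24. The scripts were tested on simulated data. The members, gene lists and tests were chosen with earlier results of these data known. The text names with all values the sensors, transcription factors and Hspa5, the 6 members of smallest p per genotype comparison, members called alike in both genotypes (up to 8 per direction, mean of at least 5 CPM), and up to 4 genes per other list; further members named with values were chosen after their values were seen. "Called", "passed", "rose", "higher" and "lower" beside a count refer to the adjusted p; "not overlapping" means that all 4 values of one group exceed all 4 of the other.

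Libraries of 1 animal are paired by its number in the titles; deviations from the group means correlated between fractions of an animal at -0.08 to 0.66 over 24 pairs, highest for the animal's own partner in 22. No label states a pairing of het with hom animals. Their names share prefixes across genotypes: BN44 with BN45, BP03 with BP04, and BO27 and BO58 with BO25 and BO57. The genotype comparisons had no block for these prefixes. Alternatives were DESeq2 1.42.0 (as a test, and its size factors in edgeR), library sizes without TMM, no filter, a mean of at least 5 CPM, 1 fit of all 24 libraries, the animal as a replicate block and leaving out each animal. Promoter windows were RefSeq's, on GRCm38.p6. With 4 animals a group, small differences could not be called.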

Additional observations from a re-analysis of the deposited data

Results flagged for a closer look

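In 191 groups of 4 libraries, 9 had 1 library far from the other 3 by Dixon's criterion; chance flags about 1 in 20 such groups. BN44 was such a library 4 times. Its stem library had the lowest het Ern1 (3.59 CPM against 6.29 to 6.59), the highest Atf4 (133.5 against 64.9 to 75.9) and the highest P4hb (472.9 against 312.0 to 331.5), and its Paneth library had the highest Ern2 (33.1 against 3.76 to 8.0). BO27 was lowest for Dnajb11 in het Paneth cells (64.7 against 97.8 to 103.8) and for Creld2 in het TA cells (70.1 against 92.4 to 96.5). In hom animals, BO25 was highest for Calr in TA cells (211.8 against 146.4 to 153.2), BO57 for Hyou1 in Paneth cells (19.9 against 10.2 to 10.9) and BN45 for Derl3 in Paneth cells (3.74 against 0.36 to 0.665). Outside the gene rows, the spike-in rows held 6.0 counts in the Paneth library of BO25 and 0 to 1 in the other 23 libraries.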

How the results depend on the processing

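No member changed direction with a call under any alternative. In the genotype comparisons and interactions the count of called members was 0 in all alternatives run. Counts are given here as higher and lower members. Without TMM they were 1 and 10 (het Paneth against TA), 7 and 3 (het Paneth against stem), 1 and 8 (hom Paneth against TA) and 5 and 4 (hom Paneth against stem). DESeq2 gave 1 higher in het stem against TA, 2 lower in het Paneth against stem, and 3 higher and 15 lower in hom stem against TA. The shares of all genes by DESeq2 were, in the same order, 5.68%, 13.3%, 4.81% and 5.07%. Members lower in het Paneth against stem numbered 2 without a filter or at a mean of 5 CPM, and 3 in the fit of all 24 libraries. A mean of 5 CPM gave 2 higher in hom stem against TA, and no filter gave 2 lower in hom Paneth against TA. With the animal as a replicate block, het stem against TA had 1 higher, het Paneth against stem 2 lower, and hom stem against TA 3 higher and 14 lower. The shares of all genes under the block were, in the same order, 5.09%, 10.4%, 3.87% and 5.07%. The block moved no other count by over 1.5 times. Leaving out 1 animal gave 2 to 11 lower in het stem against TA, 2 to 6 higher and 1 to 2 lower in het Paneth against TA, 1 to 3 lower in hom stem against TA, 4 to 6 higher and 1 to 2 lower in hom Paneth against TA, and 1 to 2 lower in hom Paneth against stem. Leaving out an animal also removes samples; otherwise the cause was not tested. Of the log2 fold changes of named members, 656 values stayed on their side of the threshold and 98 lost their call. Of 204 group mean levels, 62 moved by more than 1 SD on plain library sizes and 0 with DESeq2 size factors. Counts limit Trib3, Chac1 and Derl3 most, with few or 0 counts in many libraries.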
